A study of Mus musculus with 32 samples.

Results

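The translation elongation factors and Tpt1 were examined as 9 genes listed by name: Eef1a1, Eef1a2, Eef1b2, Eef1d, Eef1g, Eef2, Eef2k, Eef1e1 and Tpt1. All 9 were found among the 44081 genes of the 3′UTR count table and among the 23453 genes with exon counts, and all 9 were among the 10880 genes kept for testing, those detected by 1 or more reads in 16 or more of 32 libraries. The samples were 16 dendrite libraries and 16 soma libraries from 16 single hippocampal neurons of C57BL/6 mice, taken at embryonic day 18 and cultured for 15 days without further treatment named in the labels. The dendrites of a neuron were cut off and collected apart from its soma, so each dendrite library was paired with the soma library of the same neuron. RNA was amplified from its poly-A end in 2 rounds for 12 neurons and in 3 rounds for neurons 1 to 4, and ERCC spike-in RNA, diluted 1 in 4000000, was labelled for neurons 3 to 16 only. No source names the culture or animal of a neuron, so p-values measure the spread between these neurons and some of it may be technical.

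Elongation factors carry the ribosome through the coding sequence. The eEF1A proteins bring aminoacyl-tRNA to the ribosome, the eEF1B complex (eEF1Bα from Eef1b2, eEF1Bδ from Eef1d and the scaffold eEF1Bγ from Eef1g) exchanges GDP for GTP on them, and eEF2 moves the ribosome along the mRNA until it is phosphorylated by the kinase eEF2K. Eef1e1 codes for AIMP3, a scaffold of the multi-tRNA synthetase complex, and Tpt1 codes for TCTP, a small abundant protein that binds elongation factors. Many of these mRNAs belong to the 5′ terminal oligopyrimidine class, whose translation follows mTOR signalling. Neurons are known for replacing eEF1A1 with eEF1A2 as they mature, and local translation in dendrites is known to be set in part through eEF2 phosphorylation.

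A dendrite library held between 646521 and 6954420 reads on 3′UTRs, and a soma library between 925525 and 21169974. The dendrites of neurons 15 and 16 stood apart, with 1570 and 2485 genes at 10 or more reads against a median of 6052.5 over all dendrites, and spike-in RNA made up 17.1% of the exon-counted reads in the dendrites of neuron 15. Mitochondrially encoded genes took 2.39% to 35.8% of dendrite reads and 0.277% to 8.12% of soma reads. Neuronal markers (Map2, Tubb3, Snap25, Syp, Grin1 and Nefl, summed) were high in all libraries, at 7725 to 27862 normalised reads in dendrites and 6696 to 28840 in somas. Of 4 interneuron markers, Gad1 and Gad2, which make GABA, had 10 or more reads in all 16 dendrites and all 16 somas. Slc32a1 had as many in 15 dendrites and 16 somas, and Sst in 0 and 0. Of 4 pyramidal markers, Slc17a7, the glutamate transporter of pyramidal cells, had as many in 13 dendrites and 10 somas. Camk2a had as many in 13 and 12, Neurod2 in 10 and 8, and Neurod6 in 8 and 8. Summed, the 4 interneuron markers had a median of 8666 normalised reads in dendrites (4435 to 19968) and 24990 in somas (4375 to 52615). The 4 pyramidal markers had 494 (1.45 to 8313) and 122 (0 to 7864). The 5 astrocyte markers (Gfap, Aqp4, Slc1a3, Aldoc and Gja1) had summed levels with a median of 449 normalised reads in dendrites (0 to 1492) and 143 in somas (0 to 1303). Oligodendrocyte markers had medians of 55.8 (up to 1651) and 56.2 (up to 883), and microglia markers had 2.83 (up to 1224) and 0.587 (up to 30.7). The part of other cells in the members' values was not tested.

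On GRCm38 the 9 genes lie apart from each other. Eef1a1 lies at chr9:78478449-78489151 (minus strand), Eef1a2 at chr2:181147653-181157014 (minus), Eef1b2 at chr1:63176825-63180486 (plus), Eef1d at chr15:75894205-75909556 (minus) and Eef1g at chr19:8967041-8978479 (plus). Eef2 lies at chr10:81176631-81182498 (plus), Eef2k at chr7:120842831-120907450 (plus), Eef1e1 at chr13:38644207-38659058 (minus) and Tpt1 at chr14:75845093-75848525 (plus). Eef1d overlaps Naprt on the same strand, Eef1b2 overlaps Ndufs1 on the opposite strand, and Eef1b2, Eef2 and Tpt1 host small nucleolar RNA genes. The 3′UTR reads were counted with regard to strand, and the setting for the exon counts is not given in the sources used here.

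The 5′ ends are shown because a C followed by pyrimidines at the cap is the feature that defines the oligopyrimidine class. For each gene the protein-coding transcript with the longest run of C or T at its first bases was taken from GENCODE M21 (GRCm38). The first 20 bases are printed 5′ to 3′, with the leading run in capitals, for the 5 genes with a run of at least 5 bases. They are the starts at chr1:63177130-63177149 (Eef1b2), chr15:75909287-75909306 (Eef1d), chr19:8967041-8967060 (Eef1g), chr9:78481705-78481724 (Eef1a1) and chr2:181156995-181157014 (Eef1a2).
Eef1b2: CTTTTTTTCCCTCagcgctg
Eef1d: CTCTCCTTTgcagtcctgag
Eef1g: TTTCCaactcagcggggctg
Eef1a1: TTCCCgagggtgggggagaa
Eef1a2: TTCTCgctcactggttctct
Only Eef1b2 and Eef1d, with runs of 13 and 9 bases, also began with C, and the other 3 began with T and had runs of 5. A run of at least 5 was found in 5 of 9 members, in 11.2% of 9111 coding genes tested and in 38.2% of 76 cytosolic ribosomal protein genes. With a C at the start it was found in 2 of 9 members, in 6.28% of the coding genes and in 27.6% of the ribosomal protein genes. In coding transcripts of Tpt1 the longest run was 3 bases, and its run of 7 was on a transcript annotated as a retained intron that starts inside the gene. Over transcripts of any type the shares with a run of at least 5 were 6 of 9 members, 21.0% and 57.9%. An annotated start need not be the base that carries the cap in these neurons, and some of these starts lie inside the gene, so the runs describe the annotation only.

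Levels between genes were compared as RPKM, computed here from exon reads, the length of the longest coding transcript and the total of exon reads. The order depends on the counted feature, since Eef1a1 had 198578 reads on exons but 55038 on its 3′UTR, fewer than the 71067 of Eef1b2 and close to the 47013 of Eef1a2. On the exon scale Eef1a1 was the most abundant member in both compartments, with a median of 1096 in dendrites (416 to 2132) and 724 in somas (387 to 1099). Tpt1 (446), Eef1b2 (412) and Eef1g (356) followed in dendrites, and their medians lay within 1 SD of each other (SD 231, 396 and 352). In somas the order of these 3 was Eef1b2 (228), Tpt1 (198) and Eef1g (172), again within 1 SD. Eef2 came next at 210 in dendrites and 111 in somas, then Eef1a2 at 70.9 and 71.0. The exon counts held 25057 reads of Eef1a2, fewer than the 47013 on its 3′UTR, so Eef1a2 is understated here and its distance from Eef1a1 is not a measured ratio. Eef1d (26.4 and 35.6) and Eef1e1 (21.8 and 44.2) were lower, and Eef2k was the lowest member, at 0.164 and 1.81. Since the amplification starts at the poly-A tail, long transcripts are understated on this scale.

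All further levels are 3′UTR reads divided by DESeq2 size factors, called normalised reads, and are compared only between samples. For Eef1a1, the eEF1A form of most tissues, dendrites had 58.0 to 2169 normalised reads (median 1170) and somas 192 to 2149 (median 761). For Eef1a2, the form of neurons and muscle, dendrites had 245 to 1249 (median 527) and somas 146 to 1527 (median 750). Both were found in every library at 10 or more reads and the compartments overlapped over nearly their whole range, with Eef1a1 higher in the dendrites of 10 of 16 neurons and Eef1a2 in the dendrites of 6.

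Within the eEF1B complex, Eef1b2 had 0 to 5747 normalised reads in dendrites (median 1339) and 227 to 5606 in somas (median 1128). Eef1g had 335 to 4997 in dendrites (median 1108) and 311 to 1541 in somas (median 693). Eef1d had 0 to 1842 in dendrites (median 158) and 1.30 to 1526 in somas (median 221). Eef1g had reads in all 32 libraries, and its 2 highest libraries were the dendrites of neurons 15 and 16. Eef1d had no 3′UTR reads in the dendrites of 5 neurons (9, 10, 12, 15 and 16), each of which had 165 to 2079 reads in the soma, and Eef1b2 had none in the dendrites of neuron 13 against 5289 in the soma.

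Eef2 had 279 to 3387 normalised reads in dendrites (median 1072) and 261 to 1573 in somas (median 819), and it was the member most often higher in dendrites, in 13 of 16 neurons. Its kinase Eef2k had 0 to 323 in dendrites (median 2.26) and 0 to 288 in somas (median 31.9). Reads of Eef2k were found in 10 dendrites and 12 somas, and 11 of its 16 dendrite values rest on 0 to 3 reads, while the dendrites of neuron 14 had 203. Eef1e1 had 0 to 1032 in dendrites (median 88.9) and 2.91 to 1379 in somas (median 280), with the soma above the dendrites in 12 of 16 neurons. Tpt1 had 3.38 to 1545 in dendrites (median 973) and 321 to 1193 in somas (median 581), and was higher in the dendrites of 10 neurons. The lowest Tpt1 value came from 2 reads in the dendrites of neuron 15, where the soma had 3027.

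**Figure D1:**
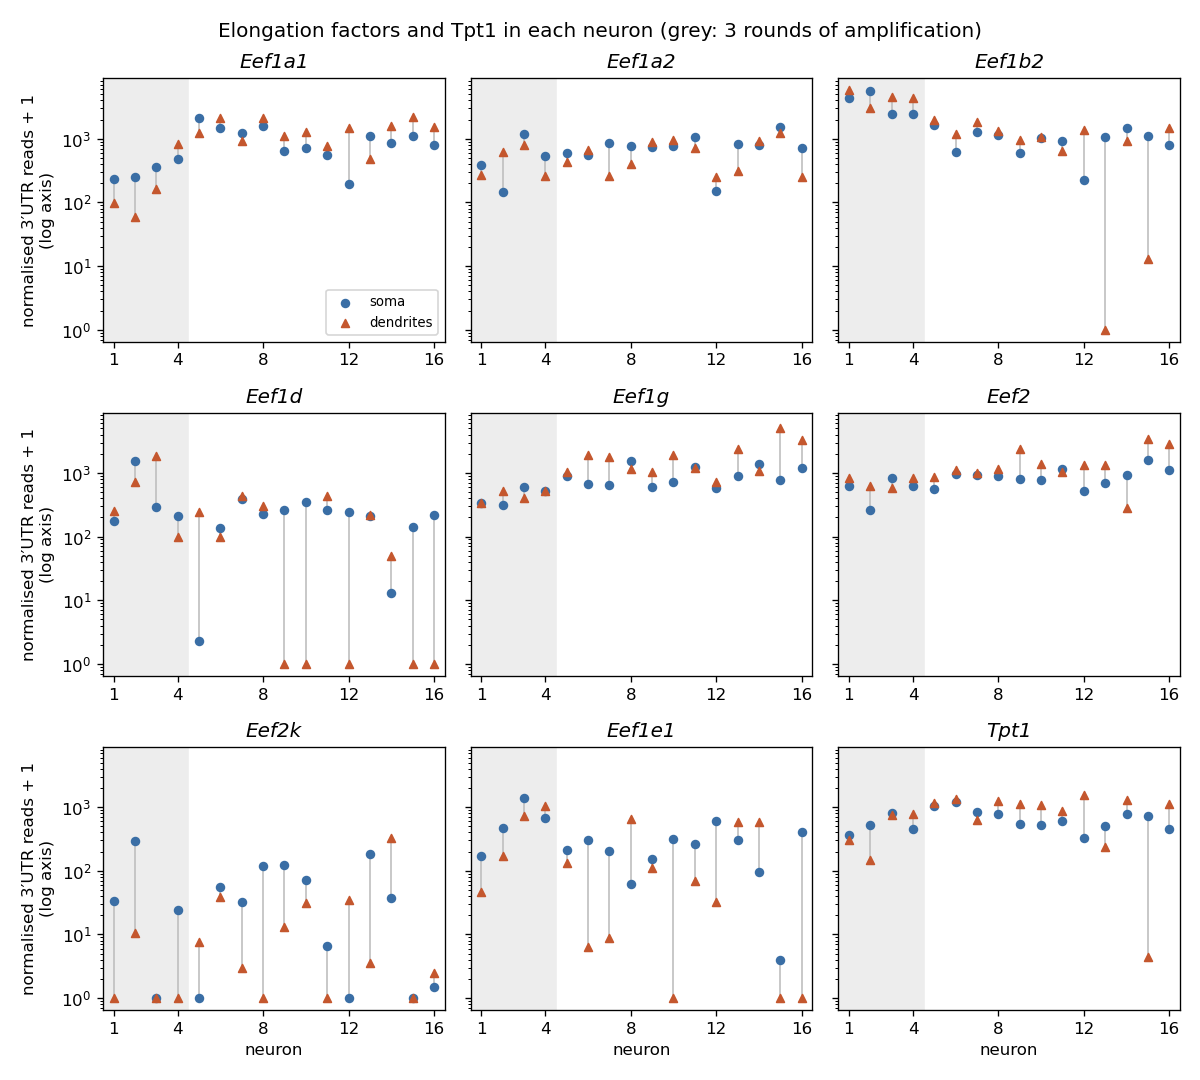
Normalised 3′UTR reads plus 1 (log axis) of each member against the number of the neuron, with 1 triangle for the dendrites and 1 circle for the soma of each of 16 neurons and grey shading over the 4 neurons of 3 rounds. Eef1g and Eef2 stay above 260 normalised reads in all libraries, whereas Eef1d, Eef2k and Eef1e1 drop to 0 in several dendrites.

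The members Eef1a1, Eef1a2, Eef1g and Eef2 had 10 or more reads in all 16 dendrites, as did 379 of the 10880 genes tested (3.48%). Tpt1 reached 10 reads in 15 dendrites, Eef1b2 in 14, Eef1d and Eef1e1 in 11 and Eef2k in 5. In somas, 10 or more reads were found in all 16 for 7 members, in 15 for Eef1d and in 11 for Eef2k.

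The question of whether the members differed between dendrites and somas was tested over all 10880 genes with neuron as a block (edgeR quasi-likelihood test with Benjamini-Hochberg adjustment). The median gene was lower in dendrites, at a log2 fold change of -1.49, so a member near 0 stood above most genes. Of the 9 members, 0 were called higher in dendrites, where 0.827% of genes were called, and 0 were called higher in somas, where 5.71% were called. By the unadjusted p, 0 of 9 members were under 0.05. On exon counts 0 members were called (1.0% of all genes were called in dendrites and 2.62% in somas), although 3 had an unadjusted p under 0.05. They were Eef1g (log2 fold change 1.36, SE 0.51, edgeR adjusted p = 0.0912), Eef1a1 (0.93, SE 0.38, adjusted p = 0.123) and Eef2 (1.26, SE 0.52, adjusted p = 0.123). Without the neuron block, too, 0 members were called (1.44% of genes higher in dendrites and 0.708% in somas). DESeq2 called 0 members higher in dendrites (4.26% of genes) and 2 higher in somas (46.2% of genes), Eef2k (log2 fold change -2.20, adjusted p = 0.0411) and Eef1e1 (-1.86, adjusted p = 0.0179).

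Eef1g and Eef2 had the largest positive estimates. The log2 fold change of dendrites over somas was 0.92 for Eef1g (SE 0.48, edgeR adjusted p = 0.185) and 0.80 for Eef2 (SE 0.50, adjusted p = 0.257). Eef1a1 (0.41, SE 0.54), Tpt1 (0.41, SE 0.62), Eef1b2 (0.30, SE 0.61) and Eef1a2 (-0.09, SE 0.57) lay within 1 SE of 0. When 1 neuron was left out these ran from 0.35 to 0.86 for Eef1a1, 0.32 to 0.90 for Tpt1, 0.22 to 0.80 for Eef1b2 and -0.23 to 0.31 for Eef1a2, and none of them passed. The other 3 were below 0, with Eef1d at -0.79 (SE 1.21), Eef1e1 at -1.55 (SE 1.02) and Eef2k at -2.49 (SE 1.60, adjusted p = 0.274), and each estimate lay within 2 SE of 0. Eef1d ran from -1.18 to -0.14 when 1 neuron was left out. Relative to the median gene, 7 of 9 members were higher and the median of the members was 1.80 above it on the log2 scale. The exceptions were Eef1e1 (-0.05) and Eef2k (-0.996). The median gene was not matched to the members in read number. Eef1d, Eef1e1 and Eef2k, the members with the fewest dendrite reads, also had the lowest estimates. Neuron by neuron, Eef1g and Eef2 were above the median gene in 15 of 16 neurons, Eef1a1, Eef1a2, Eef1b2 and Tpt1 in 12, Eef1d in 9, and Eef2k and Eef1e1 in 7.

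**Figure D2:**
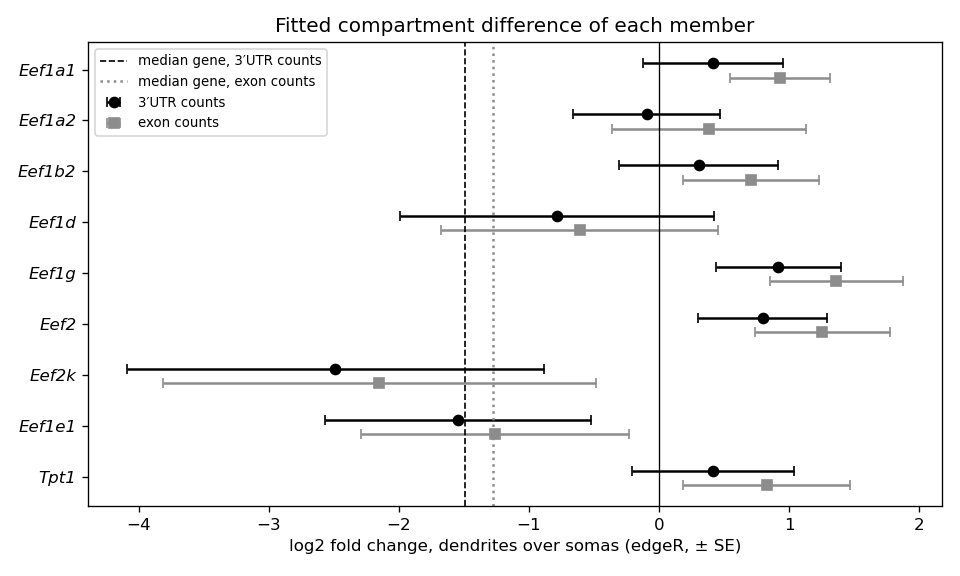
The log2 fold change of dendrites over somas with its SE for each member, from 3′UTR counts (black circles) and exon counts (grey squares), with the median gene as vertical lines at -1.49 and -1.28. Every SE bar of Eef1g and Eef2 lies right of 0, and 7 of 9 members lie right of the median gene on 3′UTR counts.

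The calls differed with the scaling of the compartments. With dendrites scaled up until the median gene lay at -0.05, 3 members were called higher in dendrites (5.04% of genes) and 0 in somas (0.846%): Eef1g (log2 fold change 2.41, adjusted p = 0.000325), Eef2 (2.29, adjusted p = 0.00109) and Eef1a1 (1.91, adjusted p = 0.0186). When exon counts of neurons 3 to 16 were scaled to the spike-in reads, the median gene stood at -4.11 and 5 members were called higher in somas (62.7% of genes) and 0 in dendrites (0.153%), namely Eef1a1, Eef1a2, Eef1b2, Eef1d and Eef1e1. All 5 members with a positive estimate turned negative under this scaling, including Eef1g (-1.52, edgeR adjusted p = 0.128) and Eef2 (-1.83, adjusted p = 0.0794), which were not called. In counts per spike-in read, Eef1a1 had a median of 0.115 exon reads in dendrites and 0.392 in somas, with the soma higher in 12 of 14 neurons. All genes together had 68.7 and 307, with the soma higher in 13 of 14. The share of a dendritic tree that was collected and the RNA in it cannot be told apart. The median of the members lay 1.84 and 2.02 above the median gene under these scalings. A scaling shifts all genes of a library together, so this distance was largely fixed beforehand and is no test.

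The dendritic fraction of a member, its dendrite reads over its dendrite and soma reads after scaling, varied little between neurons for the abundant members. The mean was 0.585 ± 0.134 (SD, n = 16) for Eef2, 0.602 ± 0.141 (SD, n = 16) for Eef1g, 0.445 ± 0.151 (SD, n = 16) for Eef1a2 and 0.525 ± 0.187 (SD, n = 16) for Eef1a1. Among 10331 genes with a fraction in at least 5 neurons, only 2.32% had a smaller variance than Eef2, 2.67% a smaller one than Eef1g, 3.54% than Eef1a2 and 7.73% than Eef1a1. Tpt1 (10.6%) and Eef1b2 (15.8%) were also in the lower part, while Eef1e1 (43.4%), Eef1d (55.3%) and Eef2k (69.1%) were ordinary. These percentiles are a description with no test, since genes with more reads have less counting error in this fraction.

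**Figure D3:**
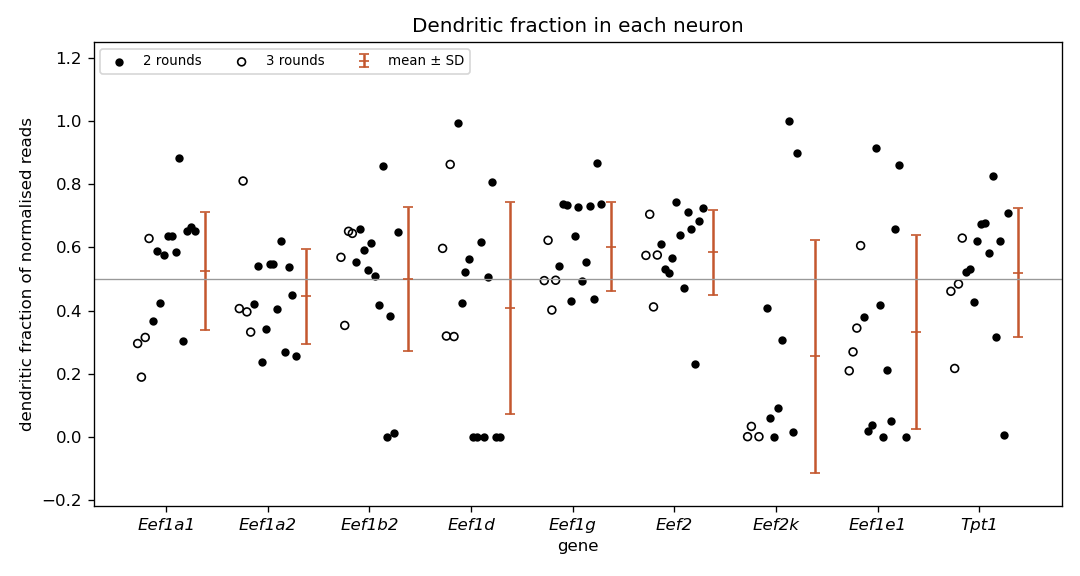
Dendritic fraction of normalised reads (y axis, 0 to 1) for each member, with 1 point per neuron that had at least 10 normalised reads in total, filled for 2 rounds and open for 3 rounds, and the mean ± SD beside it. The SD is 0.134 for Eef2 and 0.369 for Eef2k, whose lower bar passes below 0.

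Ratios of members within a library need no scaling between libraries, and 5 were compared between compartments with an exact sign-flip permutation test over the 16 neurons (two-sided, 1 read added to each count, adjusted over the 5 ratios). On 3′UTR counts 0 of the 5 passed. The ratio of Eef1a2 to Eef1a1 was lower in dendrites in 12 of 16 neurons, by a mean log2 difference of -0.50 ± 1.52 (SD, n = 16, exact permutation p = 0.211, adjusted p = 0.397). On exon counts the same ratio was lower in dendrites in 15 of 16 neurons, with a mean of -0.55 ± 0.60 (SD, n = 16, exact permutation p = 0.00372, adjusted p = 0.0186). The means were alike and the spread differed, but the 2 kinds of count do not cover the same Eef1a2 reads.

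The value from 3′UTR counts moved with neuron 2 and with the rounds of amplification. In the dendrites of neuron 2 Eef1a1 had 12 reads on its 3′UTR and 565 on its exons, and without this neuron the 3′UTR ratio gave -0.81 (exact permutation p = 0.00543, adjusted p = 0.0272). In the 12 neurons of 2 rounds it was -0.96 ± 0.81 (SD, exact permutation p = 0.00195, adjusted p = 0.00977), lower in 11 of 12. In the 4 neurons of 3 rounds it was 0.88 ± 2.41 (SD, exact permutation p = 0.625, the smallest possible being 0.125), higher in 3 of 4. The difference between both sets did not pass (exact permutation p = 0.0571, adjusted p = 0.22). On exon counts it was -0.68 ± 0.35 (SD) in the neurons of 2 rounds, lower in 12 of 12 (exact permutation p = 0.000488), and -0.14 ± 1.04 in those of 3 rounds, lower in 3 of 4 (exact permutation p = 0.875), a split chosen after the data were seen.

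**Figure D4:**
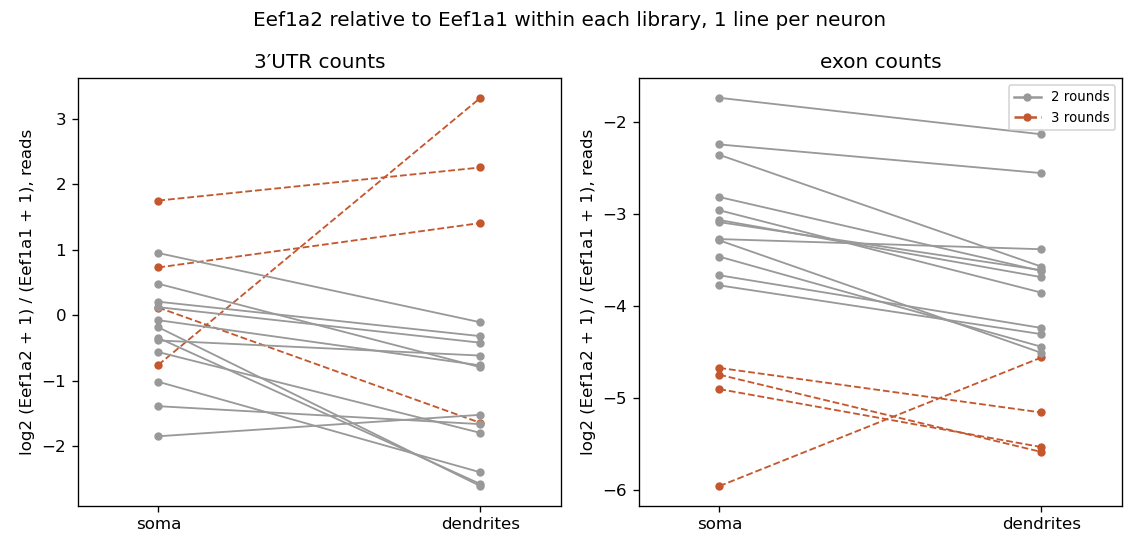
The log2 ratio of Eef1a2 to Eef1a1 reads, each with 1 read added, in the soma and the dendrites of each neuron (1 line per neuron), from 3′UTR counts on the left and exon counts on the right, with the neurons of 3 rounds dashed. On exon counts 15 of 16 lines go down from soma to dendrites, and on 3′UTR counts 12 of 16 do.

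The 3′UTR and exon counts of these genes differed more than those of any other member. Reads on the 3′UTR of Eef1a1 were 27.7% of its exon reads over all libraries (55038 and 198578 reads), and those of Eef1a2 were 188% (47013 and 25057), whereas the other 7 members had 87.0% to 99.95%. For Eef1a1 the share was 24.5% to 43.5% in the dendrites of 2 rounds and 2.12% to 10.4% in those of 3 rounds, and in somas it was 10.5% to 39.2% and 6.14% to 9.75%. The 2 sets of neurons did not overlap in either compartment. For Eef1a2 the share went the other way and was higher after 3 rounds. In somas it was at most 229.2% after 2 rounds and at least 237.5% after 3, without overlap. The medians in dendrites were 174.3% after 2 rounds and 551.9% after 3, and the ranges overlapped. For Eef1a2, exon reads lay near those on 1 of its separately counted 3′ ends, end 3, and left out much of end 2. In the dendrites of neuron 3 there were 48 exon reads, 46 reads on end 3 and 368 on end 2. In those of neuron 11 there were 771, 636 and 1386. The exon ratio of Eef1a2 to Eef1a1 therefore leaves out part of the Eef1a2 reads. Eef1a1 has many near-identical copies in the genome. Only uniquely mapped reads were counted, so reads that map equally to a copy were left out, and how many this removed was not tested.

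The other 4 ratios did not pass on either kind of count. The log2 ratio of Tpt1 to Eef1a1 differed by -0.31 ± 2.15 (SD, n = 16, exact permutation p = 0.946), with dendrites higher in 11 neurons and the mean carried by neuron 15, without which it was 0.21. Eef1g to Eef1b2 differed by 1.21 ± 3.42 (SD, n = 16, exact permutation p = 0.238) and Eef1d to Eef1b2 by -1.24 ± 5.52 (SD, n = 16, exact permutation p = 0.375). Both SDs were large beside their means, and they include the dendrites with 0 or 7 reads of Eef1b2 and the 5 dendrites without Eef1d. Low counts were not confined to dendrites. The soma of neuron 5 had 1 read of Eef1d, and the Eef1d to Eef1b2 difference of this neuron was 6.25. In neuron 5 the dendrites had 9871 genes at 10 or more reads and the soma 6889. The median gene of neuron 5 was higher in dendrites, by 0.176 on the log2 scale. Eef2k to Eef2 was lower in the dendrites of 10 neurons, by -1.77 ± 3.66 (SD, n = 16, exact permutation p = 0.0729, adjusted p = 0.365).

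The levels of Eef1b2 and, in dendrites, of Eef1g were separated by the rounds of amplification, in opposite directions. In dendrites Eef1b2 had 3054 to 5747 normalised reads after 3 rounds and 0 to 1996 after 2, and in somas 2447 to 5606 and 227 to 1615, so the sets did not overlap. Eef1g had 335 to 518 in dendrites after 3 rounds and 718 to 4997 after 2, again without overlap. In somas it had 311 to 598 and 576 to 1541, which overlapped. The ranges of Eef1a1 overlapped, but its median was 130 after 3 rounds and 1365 after 2 in dendrites, and 302 and 965 in somas. The medians of Eef1e1 were higher after 3 rounds, at 447 and 50.3 in dendrites and 566 and 237 in somas. The log2 ratio of Eef1g to Eef1b2 was -3.31 ± 0.64 (SD, n = 4) after 3 rounds and 1.68 ± 3.58 (SD, n = 12) after 2 in dendrites, and -3.02 ± 1.05 and -0.04 ± 0.66 in somas. Both differences passed an exact permutation test chosen after the data were seen (p = 0.0011 and 0.0011, each adjusted p = 0.00549 over 10 tests). The ratio of Tpt1 to Eef1a1 also differed in both compartments (exact permutation adjusted p = 0.0147 in dendrites and 0.0176 in somas) and that of Eef1a2 to Eef1a1 in dendrites (exact permutation adjusted p = 0.0176). The 3-round neurons are neurons 1 to 4, and the rounds cannot be told apart from other properties of these cells. A test of whether the compartment difference varied with the rounds called 0 of 9 members (0.0% of genes by edgeR, where 288 genes and 0 members had an unadjusted p under 0.05, and 0.572% by DESeq2).

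Use of 3′ ends was measured from the counts on separate ends, numbered per gene without coordinates, so an end is called by its number. Eef1a1 and Eef2 had 1 end each, and 6 other members had enough reads for a comparison. Tpt1 used mainly 2 of its 3 ends. End 1 took 79.0% ± 10.5 (SD, n = 15) of its reads in dendrites and 78.2% ± 8.71 (SD, n = 16) in somas. End 2 took 20.3% ± 10.1 and 20.8% ± 8.24. The share of end 2 in dendrites ran from 5.95% to 11.4% after 3 rounds and from 8.47% to 41.9% after 2. In somas it ran from 6.01% to 17.0% and from 16.1% to 37.5%. Eef1a2 divided its reads between ends 3 (60.5% ± 29.6 in dendrites and 60.0% ± 15.9 in somas, n = 16) and 2 (38.7% ± 29.1 and 37.9% ± 15.9). In Eef1b2, Eef1g, Eef1d and Eef1e1 1 end took 92.6% to 99.98% of the reads on average in both compartments. The share of the higher-numbered of the top 2 ends differed between compartments at p under 0.1 in 0 of 6 members (exact signed-rank test, two-sided), where 8.4% of 3522 genes did, and after adjustment 0 genes passed. The mean difference was -0.00495 ± 0.0797 as a fraction for Tpt1 (SD, n = 15, exact p = 0.847) and -0.00483 ± 0.268 for Eef1a2 (SD, n = 16, exact p = 0.744). Tpt1 was thus measured more closely than Eef1a2, whose share ran from 11.1% to 100.0% in single dendrites.

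**Figure D5:**
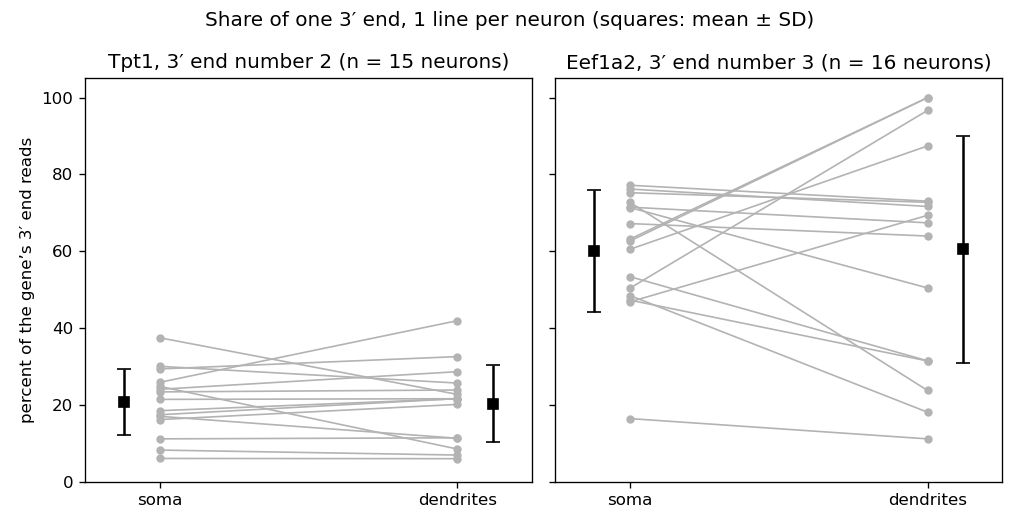
Percent of a gene's 3′ end reads on end 2 of Tpt1 (left, 15 neurons) and on end 3 of Eef1a2 (right, 16 neurons) in soma and dendrites, with 1 line per neuron and squares for the mean ± SD. The means of both compartments lie near 20% for Tpt1 and near 60% for Eef1a2, and the lines of Eef1a2 cross widely.

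Annotated copies of Tpt1 were also in the 3′UTR table. Tpt1-ps3 had reads in 15 dendrites and 16 somas, and its reads were 11.4% ± 4.58 (SD, n = 15) of those of Tpt1 in dendrites and 9.23% ± 3.54 (SD, n = 16) in somas. Its log2 fold change was 0.73 (edgeR adjusted p = 0.585), beside 0.41 for Tpt1. Tpt1-ps5 and Tpt1-ps6 had at most 62 and 17 reads in any library and Tpt1-ps2 at most 7. Tpt1-ps1 had 0 reads in all dendrites and 253 in somas, 245 of them in the soma of neuron 12, where they were 112% of the Tpt1 reads. Which of these reads came from Tpt1 itself was not tested.

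Of the 5 genes most like Eef1a1 over the 32 libraries, 3 code for ribosomal proteins. Among 6895 other genes with a mean of at least 50 normalised reads, the highest Spearman correlations with Eef1a1 were those of Rpl10 (0.83), Rps2 (0.83), Arhgdia (0.79), Rpl29 (0.78) and AL591209.1 (0.72). Among those most like Tpt1 were Tpt1-ps3 (0.65), Eef1a1 (0.65), Rpsa (0.64) and Ftl1 (0.64). Eef1g ranked 18 for Eef1a1 (0.63) and Eef2 ranked 79 (0.45), whereas Eef1d had -0.59. Compartment, rounds and depth differ among these libraries and enter the correlations, which are a description.

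Other genes of elongation and its control were counted from fixed lists, in the edgeR fit over all genes. The ribosomal proteins stood highest, with a median 2.54 above the median gene. Of 78, 8 were called higher in dendrites (0.827% of all genes) and 0 in somas (5.71%). The 8 included Rps29 (log2 fold change 2.16, edgeR adjusted p = 0.0124), Rpl39 (1.72, adjusted p = 0.0189) and Rpl41 (1.96, adjusted p = 0.0193). Rps24, with Rpl39 the most abundant, was at 1.64 (adjusted p = 0.0305). Of 13 other mRNAs of the oligopyrimidine class 0 were called higher in dendrites (0.827% of all genes) and 0 in somas (5.71%). Their median was 0.56 above the median gene. The most abundant were Npm1, a nucleolar chaperone (-1.05, SE 0.60), and Gnb2l1, which codes for the ribosome scaffold RACK1 (0.47, SE 0.56).

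Termination and rescue factors lay lower, with 2 of 8 called higher in somas (5.71% of all genes) and a median at -1.24 relative to the median gene. They were Etf1, the release factor eRF1 (log2 fold change -4.26, adjusted p = 0.0238), and Gtpbp1, a GTPase related to elongation factors (-5.03, adjusted p = 0.0413). Hbs1l and Gspt1, the most abundant of them, were at -1.69 (SE 1.02) and -2.06 (SE 1.08). Of 4 partners in the synthetase and eEF1 complexes (median -1.65 relative to the median gene) 2 were called higher in somas, Eefsec, the selenocysteine elongation factor (-6.54, adjusted p = 0.0127), and Vars, the valyl-tRNA synthetase that binds eEF1 (-4.73, adjusted p = 0.0467), while Aimp2 (-0.91, SE 1.18) and Aimp1 (-1.57, SE 1.23) were the most abundant.

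Of 8 regulators of eEF2 kinase (median 0.17 above the median gene) 1 was called higher in somas, where 5.71% of all genes were called. It was Prkaa1, a catalytic subunit of AMPK (log2 fold change -5.22, edgeR adjusted p = 0.026). Calm2 and Ppp2ca, the most abundant, were at -1.34 (SE 0.45, adjusted p = 0.0568) and -1.30 (SE 0.49, adjusted p = 0.0816), and Calm2 was lower in the dendrites of all 16 neurons. No gene was called among 5 mitochondrial elongation factors (Gfm1 -2.94, SE 1.35, and Tufm -0.97, SE 1.17), 4 genes of eIF5A and its hypusine enzymes (Eif5a -0.63, SE 0.71, and Dhps -1.03, SE 1.04), 5 genes of diphthamide synthesis on eEF2 (Dph3 -0.61, SE 1.05, and Dph6 -2.63, SE 1.45) and 3 methyltransferases of elongation factors (N6amt2 0.18, SE 1.12, and Mettl10 -2.23, SE 1.23), with the log2 fold changes of the 2 most abundant genes of each list given. The medians of these 4 lists relative to the median gene were 0.42, 0.71, -0.24 and 1.43.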

How the data were processed

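Reads were trimmed by the authors, mapped to mm10 (STAR 2.4.0 in the submitters' processing notes) and, where the mapping was unique, assigned to features by VERSE. The deposited values are raw counts: per gene over its joined 3′UTRs, per 3′ end over a window of 500 nt, and over exons and ERCC spike-ins. From these counts, genes detected in 16 or more samples (1 read or more) were fitted with edgeR 4.0.16 (R 4.3.3, TMM, quasi-likelihood, robust, neuron as a block, library size over tested genes), with a call at an adjusted p of at most 0.05. DESeq2 1.42.0 gave size factors and an alternative test. Ratios and 3′ ends were tested with exact paired tests in Python 3.11.15 (SciPy 1.17.1), the 3′ ends with at least 10 reads in both compartments of at least 5 neurons. The edgeR and 3′ end tests were also tested on simulated data.

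The pairing comes from the neuron shared by both compartments. Deviations from the compartment means correlated at 0.0851 ± 0.0741 (SD, n = 16) within neurons and at -0.00533 between neurons, and 0 of 496 library pairs held identical counts. The members and lists were chosen with earlier results of these data known. In each list every gene called was named, up to 3 per direction by p, and the 2 most abundant. Exon reads of the spike-ins were used only for scaling. Counts carry no molecular identifiers, so precision was taken from the spread between neurons. The numbering direction of 3′ ends is not given in the sources used here, so ends were not called proximal or distal. The instrument of each sample is not given either. Alternatives covered the test, scaling, filter, counted feature, block, rounds and single neurons. Of the 5 genes most like Tpt1, 1 is not reported here.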

Additional observations from a re-analysis of the deposited data

Results flagged for a closer look

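Above the floor of 3 reads set for this check, spike-in reads were counted in the 4 libraries of neurons 1 and 2, whose labels give no spike-in. There were 65 reads in the dendrites and 59 in the soma of neuron 1, and 72 in the dendrites and 80 in the soma of neuron 2. They made up at most 0.0137% of the exon-counted reads of a library, and both neurons were left out of the spike-in scaling.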

How the results depend on the processing

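No member was called in the main comparison, and of the alternatives 3 gave calls: the rescaling of dendrites to the median gene (3 higher in dendrites), DESeq2 (2 higher in somas) and the spike-in scaling of exon counts (5 higher in somas). Leaving out each neuron gave 0 calls in either direction. The median of the members above the median gene was 1.51 to 2.04 when 1 neuron was left out and 0.41 when genes with 1 read in any sample were kept, which adds genes with few reads. The next 2 alternatives were chosen after seeing the data. Library sizes over all genes changed the calls of all genes from 90 and 621 to 115 and 387, and leaving out neurons 15 and 16 changed them to 68 and 101, with 0 members called in both. Counts of all genes called higher in dendrites and in somas were 463 and 5029 with DESeq2, 81 and 1008 with its size factors, 548 and 92 with the rescaling, 15 and 143 with the widest filter, 88 and 181 with the filter of 10 reads, 98 and 257 on exon counts, 15 and 6145 with spike-in scaling, 43 and 354 after 2 rounds, 4 and 1 after 3 rounds, and 56 to 120 and 130 to 990 when 1 neuron was left out.

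The fit with no replicate block called 0 members and gave a median of 0.84 above the median gene, and 157 genes higher in dendrites and 77 in somas. Unpaired tests called 0 ratios and 0 members for 3′ ends. Without this pairing the log2 fold change of Eef1d was 0.55.

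Signs turned with the setting, and under the spike-in scaling those of all 5 positive estimates did. Under the spike-in scaling the log2 fold change was -1.93 for Eef1a1, -2.10 for Eef1b2, -1.52 for Eef1g, -1.83 for Eef2 and -1.83 for Tpt1. With the rescaling it was 1.400 for Eef1a2 and 0.70 for Eef1d. In the neurons of 3 rounds alone it was -0.29 for Eef1a1, 0.58 for Eef1a2 and 0.79 for Eef1d. Eef1a2 was at 0.26 with the filter of 10 reads, 0.38 on exon counts, 0.21 with library sizes over all genes, 0.10 without neurons 15 and 16, where Eef1d was at 0.040, and -0.23 to 0.31 when 1 neuron was left out. Eef1b2 was at -0.0045 with DESeq2 and -0.0043 with its size factors in edgeR.

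The ratio of Eef1a2 to Eef1a1 passed on exon counts (-0.55) and in the neurons of 2 rounds (-0.96), was 0.88 in those of 3 rounds and ran from -0.81 (without neuron 2, the only omission with which it passed) to -0.37 when 1 neuron was left out. Tpt1 to Eef1a1 was 0.55 in the neurons of 3 rounds, 0.20 without neurons 15 and 16, and -0.40 to 0.21 when 1 neuron was left out. Eef1g to Eef1b2 was -0.30 in the neurons of 3 rounds. For 3′ end use 0 members were at p under 0.1 under the 5 alternatives run. The causes were not tested. Counts were lowest in dendrites for Eef2k, with a median of 1 read, and then for Eef1e1 and Eef1d with 47 and 65.5 reads, so their values are the least precise.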
